A study of Mus musculus with 3 samples.

Results

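The 10 genes described here, Hps1, Hps4, Hps3, Hps5, Hps6, Bloc1s5, Dtnbp1, Ap3b1, Lyst and Vps33a, build the sorting machinery of melanosomes and other lysosome-related organelles. They were chosen by name, as the genes of the BLOC complexes and of Hermansky-Pudlak syndrome together with their partners, out of 18015 protein-coding genes with at least 1 accessible feature. A feature is a 500 bp stretch of open chromatin from the study's deposited list of 315694, and each gene received the features that overlap its mm10 gene body or the 2 kb on either side of it. This gave 144 features, of which 22 lay within 1 kb of a RefSeq start of the gene and 122 lay further away.

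The data are single-nucleus ATAC-seq counts, in which the transposase Tn5 cuts and tags open chromatin. Nuclei came from dorsal skin of mice aged 7 weeks by the protocol and 8 weeks by the sample records, and carried the transgenes Dct-rtTA and Tre-H2B-GFP. This pair of transgenes puts a green histone into cells in which the Dct promoter is active while doxycycline is given, and all groups drank doxycycline (20 mg per 100 ml) for 5 days before GFP+ nuclei were sorted. The telogen group (resting hair follicles) was 12 mice with neither depilation nor UVB. The anagen group (growing follicles) was 8 mice depilated with Nair cream, labelled once anagen had begun. The UVB group was 24 mice given 2.2 mJ/cm2 of UVB on the back 3 times in a week. Mice were pooled in each group, telogen and anagen nuclei shared 1 library, and the UVB pool was run as 2 technical replicates deposited in 1 matrix. Each condition is therefore 1 sample, and no test between conditions was possible. The library and the UVB treatment cannot be told apart, and neither can depilation and anagen. Ratios are given with 95% exact conditional binomial intervals that cover counting error only; they are too narrow, because counts mostly come in pairs (61.1% of the stored entries have the value 2).

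After each barcode was counted once per condition, 2042 telogen, 3753 anagen and 6553 UVB nuclei remained, with 5225945, 10397896 and 16182770 counts and a median of 1650, 1577 and 1726 counts per nucleus; 506 barcodes occur in more than 1 condition. The sorted nuclei were mixed. Clusters with raised melanocyte markers (cluster 2, with 8 of 13 markers at 2-fold or more over the other nuclei, and cluster 7, with 12 of 13) are called melanocyte-like here and made up 6.17% of telogen, 25.6% of anagen and 24.6% of UVB nuclei, and 4.35%, 44.7% and 26.6% of the counts. Schwann cell markers were also raised in cluster 2, with a median log2 fold of 0.80 beside 1.08 for melanocyte markers. In cluster 7 these were 0.15 and 2.20. No melanocyte marker was among the 10 genes that most set cluster 2 apart. Nearly all melanocyte-like nuclei of telogen and UVB were in cluster 2. The others were keratinocyte-like, fibroblast-like, endothelial-like, myeloid or Langerhans-like, Schwann-like and pericyte-like. Cluster 4, in which no list had enough raised markers for a name, held 5.09%, 4.93% and 21.2% of the nuclei. In bulk values over all nuclei, a change in the number of cells of a type and a change of openness per cell cannot be told apart. The telogen melanocyte-like class is small, 126 nuclei with 227423 counts.

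Melanosomes mature from endosomes that receive enzymes and transporters in carriers. BLOC-1 and the adaptor AP-3 form those carriers at the endosome, BLOC-2 directs them to the melanosome, and BLOC-3 activates the GTPases Rab32 and Rab38, which take part in this delivery. Loss of any of these genes dilutes coat colour in mice, and in people defects in several of them cause Hermansky-Pudlak syndrome, with pale skin and bleeding.

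Levels are in CPM, counts per 1000000 counts of the condition or class. Over all features of a gene, 4 of the 10 genes were at least 1.5-fold higher in anagen than in telogen, against 12.9% of the 16073 genes compared. These were Bloc1s5, Hps4, Ap3b1 and Hps3. None was lower by that much, where 16.3% of all genes were. The median log2 ratio was 0.42 for the 10 genes and -0.11 for all genes. Between UVB and telogen none of the 10 passed 1.5-fold either way, where 9.07% of genes were higher and 16% lower, and their median log2 ratio was 0.07. From anagen to UVB, 5 of the 10 were lower by 1.5-fold or more (Bloc1s5, Hps4, Vps33a, Ap3b1 and Hps3), against 13% of all genes, and none was higher, beside 10.2%; the median was -0.55. The conditions share samples, so these comparisons are not independent of each other. The UVB nuclei whose names carry the number 19 hold 51.6% of the UVB counts. Without them, 2 genes rather than 5 were lower in UVB than in anagen, with a median of -0.42. In UVB over telogen 1 gene rather than none was then higher. No share over all genes stands beside these counts without number 19.

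Most of the differences lay away from gene starts. The 22 start features together were level, with a ratio of 0.977 (0.921 to 1.04) in anagen over telogen and 1.001 (0.958 to 1.05) in UVB over anagen. By gene, 1 of the 9 starts compared was 1.5-fold higher in anagen than in telogen (8.77% of all genes) and none lower (15%). None of the 9 passed that line between UVB and telogen, where 7.24% of genes were higher and 15.4% lower, or between UVB and anagen, where 9.54% were higher and 9.87% lower. The 122 features further away had a pooled ratio of 2.47 (2.28 to 2.69) in anagen over telogen and 0.511 (0.485 to 0.538) in UVB over anagen. Of the 43 compared singly in anagen over telogen, 37 were 1.5-fold higher and 4 lower. Of 43652 such features in all gene windows, 50.2% were higher and 20.8% lower, and the medians were 2.03 and 0.59. In UVB over anagen 37 of 62 were lower and 9 higher. Of 61884 such features, 42.4% were lower and 21.7% higher, with medians of -0.91 and -0.36. By gene, 8 of the 9 genes with enough counts away from the start were at least 1.5-fold higher in anagen than in telogen, where 30.9% of all genes were, and the median log2 ratio was 1.32 against 0.08 for all genes; none was lower, where 21.4% were. Over telogen, UVB had 2 of 9 genes higher, Dtnbp1 and Vps33a (15.7% of all genes), and none lower (26.4%). In UVB over anagen 7 of 9 were lower, where 32.9% of all genes were, with medians of -1.11 and -0.23. Bloc1s5, Hps5 and Vps33a had 20, 25 and 13 such counts in telogen and reached the minimum of 30 counts through anagen.

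**Figure D1:**
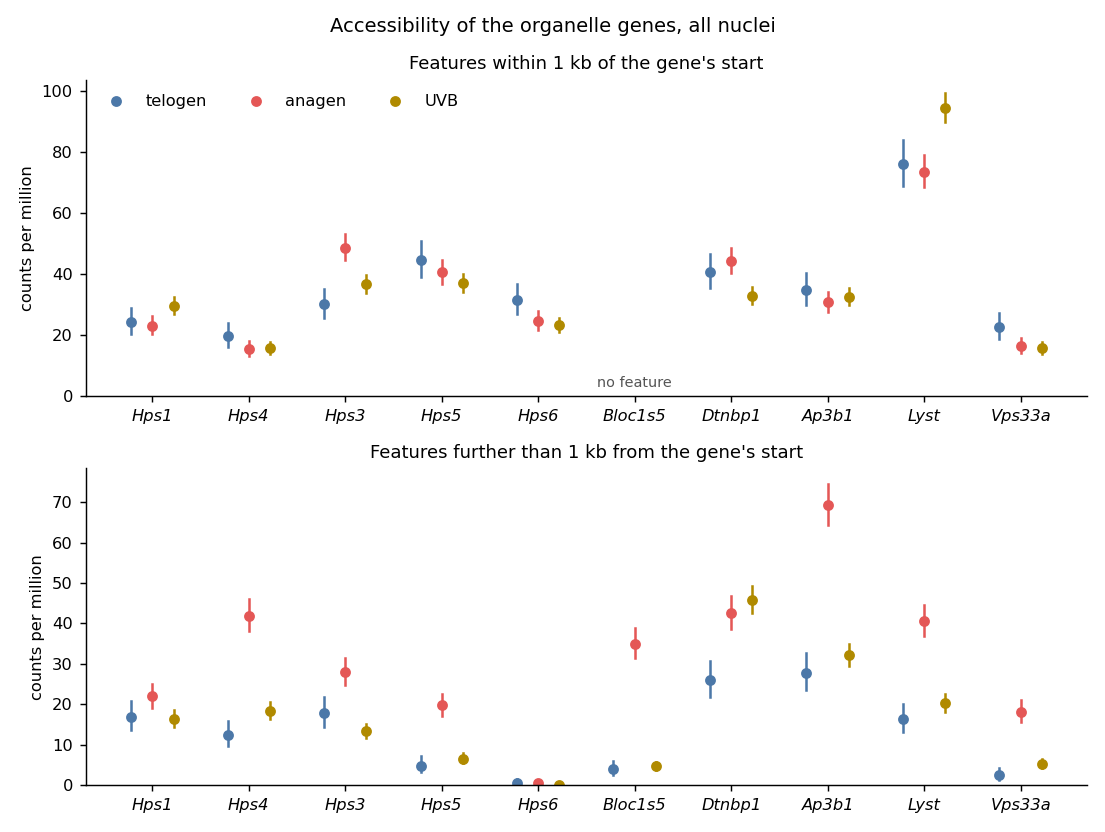
Counts per 1000000 counts (CPM) in each condition over all nuclei, in features within 1 kb of the gene's start (top) and further away (bottom); points are the 3 conditions and bars are exact 95% Poisson intervals of the counts. At the starts no pair of conditions differs by 1.5-fold for any gene but Hps3; away from the starts the anagen points of Hps4, Hps5, Bloc1s5, Ap3b1, Lyst and Vps33a stand above both others.

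**Figure D2:**
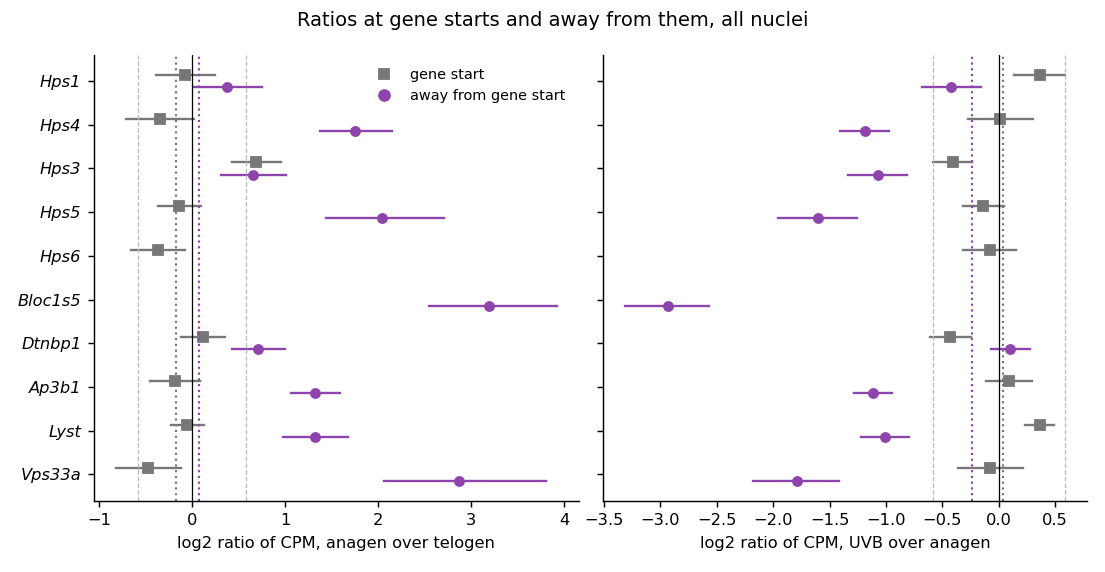
Log2 ratio of CPM for each gene in anagen over telogen (left) and UVB over anagen (right), at gene starts (grey squares) and away from them (purple circles), with 95% counting intervals; dotted lines are the medians of all genes and dashed lines mark 1.5-fold. The largest values belong to Bloc1s5 away from its start, and all grey squares but that of Hps3 lie within the dashed lines.

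Bloc1s5, the gene of the muted mouse and a subunit of BLOC-1, had the largest differences of the 10. It had 20 counts in telogen, 364 in anagen and 74 in UVB, or 3.83, 35.01 and 4.57 CPM. Only the anagen level stood apart: the ratio was 9.15 (5.84 to 15.2) in anagen over telogen, 1.19 (0.721 to 2.07) in UVB over telogen and 0.131 (0.100 to 0.168) in UVB over anagen. In anagen over telogen it ranked 23 of 16073 genes, and in UVB over anagen 16464 of 16477. No feature lay within 1 kb of its start, so all its counts came from 9 features inside the gene. The 4 with most anagen counts, picked after their values were seen, centred 1805, 8949, 9493 and 12554 bp downstream of the start, with 75, 72, 91 and 71 counts, beside 1, 6, 7 and 0 in telogen and 5, 15, 17 and 20 in UVB. The feature nearest the start, chr13:38633037-38633537, had 37.7-fold more CPM in anagen than in telogen, with an interval from 6.56 to 1508 because telogen had 1 count.

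Most Bloc1s5 counts of anagen were in melanocyte-like nuclei. Of 364 counts, 326 were in that class and 321 (88.2%) in cluster 7, giving 70.1 CPM in melanocyte-like and 6.61 CPM in other nuclei. All 75 anagen counts of the feature nearest the start were in cluster 7. Melanocyte-like nuclei of telogen had 0 Bloc1s5 counts. With that 0 set to the floor of 3 counts, or 13.2 CPM, the anagen level was 5.31-fold higher. The lower bound of the exact interval was 4.30. Melanocyte-like nuclei of UVB had 36 counts, 8.37 CPM. Bloc1s5 is among the 10 genes that most set cluster 7 apart, so its level there is a description of the cluster. Cluster 4, outside the class, had 48.3 CPM in anagen, from 10 counts.

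Hps1 and Hps4 are the partners of BLOC-3, the exchange factor for Rab32 and Rab38. Hps4 had 32.1 CPM in telogen, 57.4 in anagen and 34.0 in UVB. At its start it had 19.7, 15.5 and 15.6 CPM. Its features further away had 12.4, 41.9 and 18.4 CPM, an anagen over telogen ratio of 3.37 (2.59 to 4.45). The leading feature, chr5:112344308-112344808 at 1463 bp downstream, had 20, 181 and 196 counts, of which 12, 177 and 141 were in melanocyte-like nuclei. Within that class its level was 52.8 CPM in telogen, 38.1 in anagen and 32.8 in UVB, so this feature was open in the class in all 3 conditions. In other nuclei it had 1.60, 0.696 and 4.63 CPM. A feature 10615 bp downstream, chr5:112353460-112353960, had 4, 40 and 5 counts, and all 40 anagen counts were in cluster 7. The Srrd gene overlaps the start of Hps4 and shares 5 of its 15 features, the leading one among them, with 72.7% of the Hps4 counts in anagen, so these cannot be given to 1 of the genes. Over the features of no other gene the log2 ratio of anagen over telogen was 2.11 rather than 0.84. Those features do not include the 2 at the start. Srrd shares 85.1% of the 168 telogen counts of Hps4, so few telogen counts remained.

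Hps1 did not share this pattern. It had 41.1 CPM in telogen, 45.0 in anagen and 46.0 in UVB, and ratios of 1.09 (0.929 to 1.29) in anagen over telogen and 1.02 (0.910 to 1.15) in UVB over anagen. It was lower in melanocyte-like than in other nuclei in anagen, 31.4 beside 56.0 CPM. Its leading feature away from gene ends, chr19:42753073-42753573, had 36, 128 and 160 counts; it also overlaps the window of Pyroxd2 and held 27.4% of the Hps1 counts in anagen, so these cannot be given to 1 of the genes. Together, its features away from the start were most open in endothelial-like nuclei, at 45.8 CPM in telogen, 76.8 in anagen and 54.1 in UVB. The feature chr19:42758569-42759069, 19827 bp downstream, had 29 of its 37 telogen counts and 38 of its 45 anagen counts in endothelial-like nuclei. Its 36 UVB counts, 10 of them endothelial-like, gave 0.314 of the telogen CPM (0.193 to 0.511). The share of endothelial-like nuclei was 30.4% in telogen, 22.7% in anagen and 6.52% in UVB, and its part in this difference was not tested.

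Hps3, Hps5 and Hps6 form BLOC-2. Hps3, mutated in the cocoa mouse, had 47.8, 76.6 and 49.9 CPM in telogen, anagen and UVB, and it was the one gene with a start more than 1.5-fold higher in anagen than in telogen, at 1.62 (1.35 to 1.95); 8.77% of all genes had such a start. Of its 2 start features, the one centred 270 bp downstream was level at 28.7, 26.9 and 29.3 CPM. The other, chr3:20034162-20034662, centred 898 bp downstream, had 7, 225 and 118 counts, or 1.34, 21.6 and 7.29 CPM. The anagen over telogen ratio was 16.2 (7.71 to 40.6). Melanocyte-like nuclei held 199 of the 225 anagen counts and 60 of the 118 UVB counts. Inside the gene, chr3:20023777-20024277 had 7, 57 and 24 counts, 50 of the 57 in melanocyte-like nuclei. Outside the class, Hps3 was open in myeloid or Langerhans-like nuclei, with 52.0, 31.1 and 53.4 CPM away from the start.

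Hps5 had 49.4 CPM in telogen, 60.3 in anagen and 43.4 in UVB, mostly at its start, where the levels were 44.6, 40.6 and 36.9. Further away it had 4.78, 19.7 and 6.49 CPM, a ratio of 4.12 (2.71 to 6.52) in anagen over telogen and 0.329 (0.258 to 0.418) in UVB over anagen. The feature chr7:46773316-46773816, 22315 bp downstream, accounted for 2, 87 and 21 of these counts. In anagen 85 of the 87 were in cluster 7. Hps5 and Gtf2h1, a subunit of a general transcription factor, start next to each other and share 3 features, so the starts cannot be told apart. Over the features of Hps5 alone the log2 ratio of anagen over telogen was 2.24, beside 0.29 over all. Those features do not include the 2 at the start. Gtf2h1 shares 92.2% of the 258 telogen counts of Hps5, so few telogen counts remained. Hps6 is a short gene without introns, and 98.8%, 97.7% and 99.7% of its counts were at the start, with 32.0, 25.1 and 23.2 CPM in all. Its UVB over telogen ratio was 0.727 (0.604 to 0.878), and too few counts lay away from the start to compare.

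**Figure D3:**
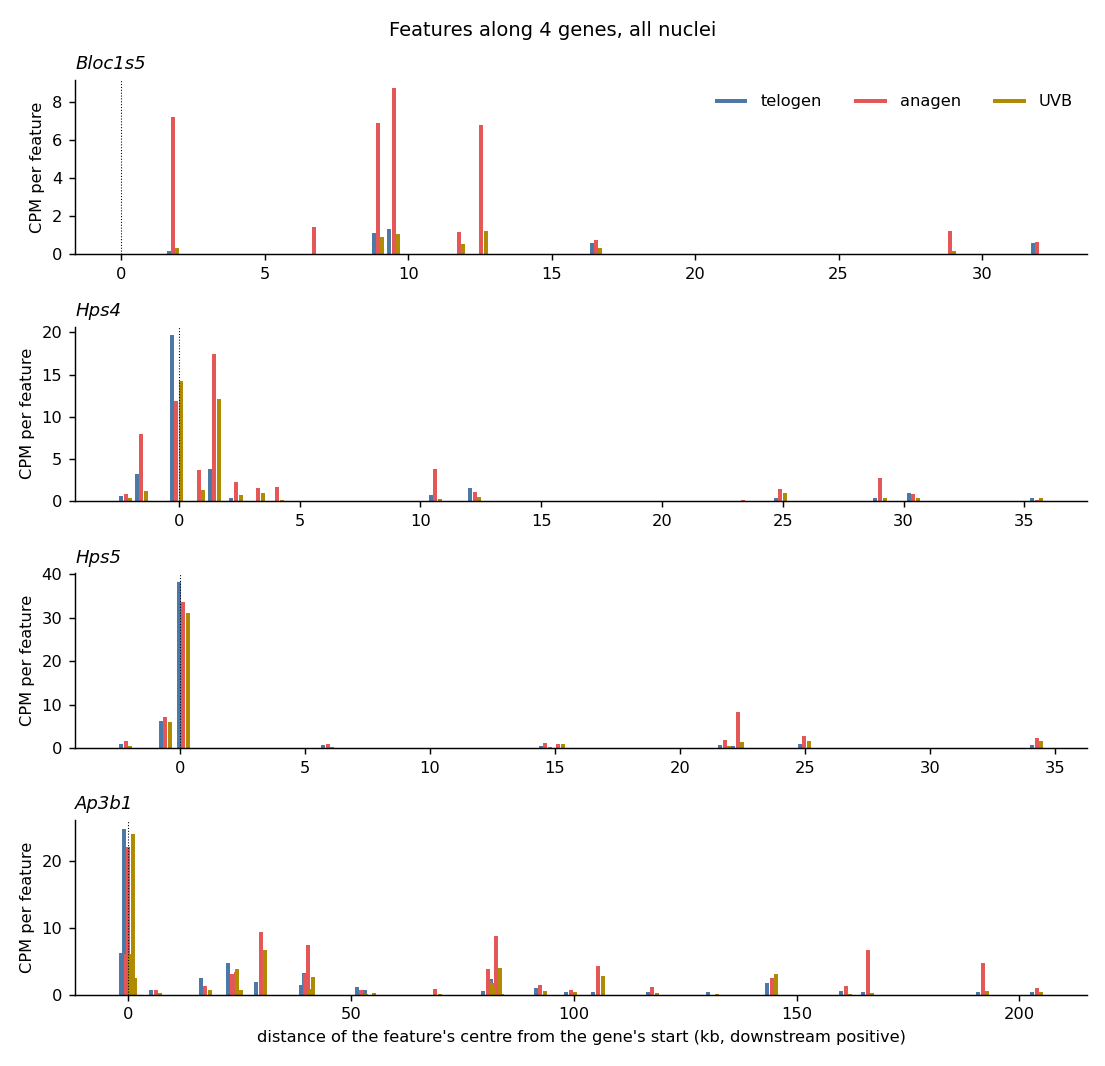
Level of each feature (CPM over all nuclei, vertical axis) by the distance of its centre from the gene's start in kb (downstream positive), for Bloc1s5, Hps4, Hps5 and Ap3b1; bars are telogen, anagen and UVB, shifted slightly so that they can be seen. Hps4, Hps5 and Ap3b1 have tall bars at 0 in all 3 conditions, while most bars further away are highest in anagen; Bloc1s5 has no bar at 0.

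Dtnbp1 encodes dysbindin, a BLOC-1 subunit mutated in the sandy mouse. It had 66.8 CPM in telogen, 86.8 in anagen and 78.6 in UVB. Away from the start it had 26.0, 42.6 and 45.8 CPM, and was the one gene of the 9 whose level there was not lower in UVB than in anagen (1.07, 0.954 to 1.21). Different nuclei gave these counts. The feature 1842 bp downstream, chr13:45000004-45000504, had 2, 51 and 29 counts, with all 51 anagen counts and 21 of the 29 UVB counts in melanocyte-like nuclei. The feature with most counts away from gene ends, chr13:44939232-44939732, had 25, 89 and 115 counts, of which 0, 28 and 0 were in melanocyte-like nuclei. The feature 29414 bp downstream, chr13:44972432-44972932, which was singled out after its values were seen, had 11, 34 and 173 counts, and 166 of the 173 were in fibroblast-like nuclei. Fibroblast-like nuclei had 39.8 CPM of Dtnbp1 away from the start in telogen, 39.5 in anagen and 113 in UVB. Of the UVB fibroblast-like nuclei, 81.3% carry the number 19 in their names. Without the nuclei of that number the log2 ratio of UVB over telogen away from the start was -0.17, where with them the ratio was 1.76 (1.46 to 2.13).

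Ap3b1 encodes the beta subunit of AP-3 and is mutated in the pearl mouse. It had 62.6, 100.1 and 64.7 CPM in telogen, anagen and UVB. Its start was level, at 34.8, 30.7 and 32.6 CPM, and away from it the levels were 27.7, 69.4 and 32.1. The anagen over telogen ratio away from the start was 2.50 (2.09 to 3.01). The feature chr13:94388396-94388896, 29686 bp downstream, had 10, 98 and 108 counts, with 87 and 77 of the last 2 in melanocyte-like nuclei. Within the class it was at 18.7 CPM in anagen and 17.9 in UVB. Another, chr13:94524648-94525148 at 165938 bp, had 2, 70 and 5 counts, and 68 of the 70 were in cluster 7. In UVB melanocyte-like nuclei this second feature had 2 counts, or 0.465 CPM. Cluster 4 had 105 CPM of Ap3b1 away from the start in telogen, 91.7 in anagen and 52.7 in UVB. Counts away from the start are therefore not those of the class alone. The telogen and anagen levels of cluster 4 rest on few counts, as it had 123854 and 207237 counts in all.

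Lyst, the lysosomal trafficking regulator of the beige mouse, has giant granules as the sign of its loss. It had the most counts of the 10 genes, with 92.2 CPM in telogen, 114 in anagen and 115 in UVB. The feature over its start was the highest of the 144, at 60.3, 58.6 and 78.4 CPM. At the start the UVB level was above both others, with ratios of 1.24 (1.11 to 1.39) over telogen and 1.29 (1.18 to 1.403) over anagen, under the 1.5-fold line. The order was another away from it: 16.3, 40.6 and 20.2 CPM. The feature chr13:13588144-13588644, upstream of the start, had 1, 39 and 14 counts, and chr13:13591777-13592277, 1618 bp downstream, had 17, 61 and 68. In melanocyte-like nuclei the counts away from the start were 57.2 CPM in telogen, from 13 counts, 68.4 in anagen and 14.2 in UVB.

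Vps33a, mutated in the buff mouse, is the Sec1/Munc18 protein of the HOPS and CORVET tethers that prepare endosomes and lysosomes for fusion. It had 25.3, 34.6 and 20.9 CPM in telogen, anagen and UVB. At its start it was lower in anagen (16.4 CPM) and UVB (15.6) than in telogen (22.8). Away from the start it had 13, 189 and 85 counts, a ratio of 7.31 (4.17 to 13.98) in anagen over telogen. These came from 3 features at the far end of the gene, of which chr5:123528939-123529439, singled out after its values were seen, had 11, 135 and 71 counts. Melanocyte-like nuclei held 131 of the 135 and 51 of the 71. A second, chr5:123529784-123530284, had 0, 37 and 5 counts. With the telogen 0 set to the floor of 3 counts it was 6.20-fold higher in anagen than in telogen. The lower bound of its exact interval was 4.79.

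Promoters are shown for 4 genes. They are Lyst, with the most open start, Bloc1s5, with no feature at its start, and Vps33a and Hps1, whose windows hold E-box matches. Openness at the Bloc1s5 start was not measured, as only listed features have counts. The annotated Bloc1s5 gene reaches chr13:38637117, upstream of the start used. The sequences run from 250 bases before the RefSeq start to 50 after it (RefSeq, GRCm38.p6, the build of mm10), 5′ to 3′ on the gene's strand, and capitals mark matches to the motifs searched on both strands: CACGTG (E-box), CATGTG (M-box core), the CLEAR element (a palindrome that contains an E-box), TGANTCA (AP-1), GGGCGG (GC box), CCGGAAG (ETS) and the NRF1 palindrome. Coordinates of features are as the deposited list gives them. The promoter windows are chr13:13590159-13590458 on the plus strand for Lyst, and on the minus strand chr13:38635043-38635342 for Bloc1s5, chr5:123572966-123573265 for Vps33a and chr19:42779929-42780228 for Hps1.
Lyst: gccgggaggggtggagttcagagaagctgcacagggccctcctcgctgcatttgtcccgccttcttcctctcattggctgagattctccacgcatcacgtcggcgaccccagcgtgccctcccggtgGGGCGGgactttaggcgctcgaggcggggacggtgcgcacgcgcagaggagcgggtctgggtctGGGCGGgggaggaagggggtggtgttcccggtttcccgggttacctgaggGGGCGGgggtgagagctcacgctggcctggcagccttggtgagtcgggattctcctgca
Bloc1s5: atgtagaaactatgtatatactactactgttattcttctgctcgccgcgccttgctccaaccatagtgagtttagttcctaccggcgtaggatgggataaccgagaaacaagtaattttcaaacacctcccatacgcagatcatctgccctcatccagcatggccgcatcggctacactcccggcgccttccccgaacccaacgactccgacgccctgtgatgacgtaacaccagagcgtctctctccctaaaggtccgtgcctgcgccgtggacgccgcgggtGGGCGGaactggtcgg
Vps33a: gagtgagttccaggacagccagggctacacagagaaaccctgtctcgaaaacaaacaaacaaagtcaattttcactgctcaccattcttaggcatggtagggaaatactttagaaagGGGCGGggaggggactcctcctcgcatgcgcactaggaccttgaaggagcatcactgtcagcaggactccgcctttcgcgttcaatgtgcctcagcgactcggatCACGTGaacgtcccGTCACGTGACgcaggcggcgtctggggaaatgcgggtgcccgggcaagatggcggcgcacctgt
Hps1: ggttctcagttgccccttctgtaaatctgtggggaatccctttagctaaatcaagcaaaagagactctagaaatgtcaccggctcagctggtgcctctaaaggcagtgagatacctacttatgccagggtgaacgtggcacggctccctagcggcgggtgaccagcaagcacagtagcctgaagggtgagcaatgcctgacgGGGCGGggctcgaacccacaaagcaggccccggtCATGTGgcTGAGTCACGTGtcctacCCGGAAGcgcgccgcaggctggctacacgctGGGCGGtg
CACGTG was found in the windows of 4 of the 10 genes (Hps1, Hps3, Hps5 and Vps33a) and in 7.15% of the 32851 RefSeq promoter windows of the table. Vps33a held the full CLEAR element, present in 0.326% of windows, from position -14 of the start, and a second CACGTG from -28. Hps1 held CACGTG from position -1, overlapping a TGANTCA match, and CATGTG from -14. The GC box was in 9 of 10 genes and 35.7% of windows, and is the one motif marked in Lyst (3 matches) and Bloc1s5 (1 match). The ETS motif was in 2 genes (Hps1 and Ap3b1) and 8.86% of windows, TGANTCA in 1 and 7.81%, CATGTG in 1 and 14.2%, and the NRF1 motif in 0 and 0.971%. The window of Bloc1s5 was 55.7% G or C with 25 CpG, beside medians of 52.7% and 7 over all windows, and overlapped none of the 315694 features. A match says only that the letters are there.

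Between the classes of nuclei, more of the genes were higher in melanocyte-like than in other nuclei in anagen than in the other conditions. In anagen, 7 of 10 were at least 1.5-fold higher, where 24.6% of all genes were, with a median log2 ratio of 0.97. In that condition 1 was lower (Hps1), where 24.1% were. Away from the start it was 8 of 9 genes, beside 41% of all genes, and the median was 2.25 against 0.22. The largest were Vps33a at 14.3 (8.46 to 26.2), Hps4 at 12.2 (8.83 to 17.4) and Bloc1s5 at 10.6 (7.56 to 15.3), and Hps1 was lower at 0.384 (0.277 to 0.523), where 29.5% of genes were lower. Vps33a had 174 such counts in melanocyte-like and 15 in other nuclei, so it reached the minimum of 30 counts through the class. In UVB 3 of 10 genes were higher over the whole window (14.5% of all genes), namely Bloc1s5, Hps4 and Vps33a, and none was lower (25.1%). Away from the start 4 of 9 were higher in UVB (Hps4, Hps5, Bloc1s5 and Vps33a; 18% of all genes) and 3 lower (Hps1, Dtnbp1 and Lyst; 44.6%). In telogen 4 of the 9 compared were higher (20.6%), each from 12 to 39 melanocyte-like counts. Hps1 was lower there (31.2%), at 0.311 (0.0636 to 0.921) from 3 counts. Away from the start 2 of the 6 compared in telogen were higher (21.6%) and none was lower by 1.5-fold (41%). The 2 were Hps4 at 5.49 (2.74 to 10.2) and Lyst at 3.97 (2.02 to 7.22), each from 13 melanocyte-like counts. These classes come from clustering the same counts, so the values describe them. The other nuclei include those of cluster 4.

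**Figure D4:**
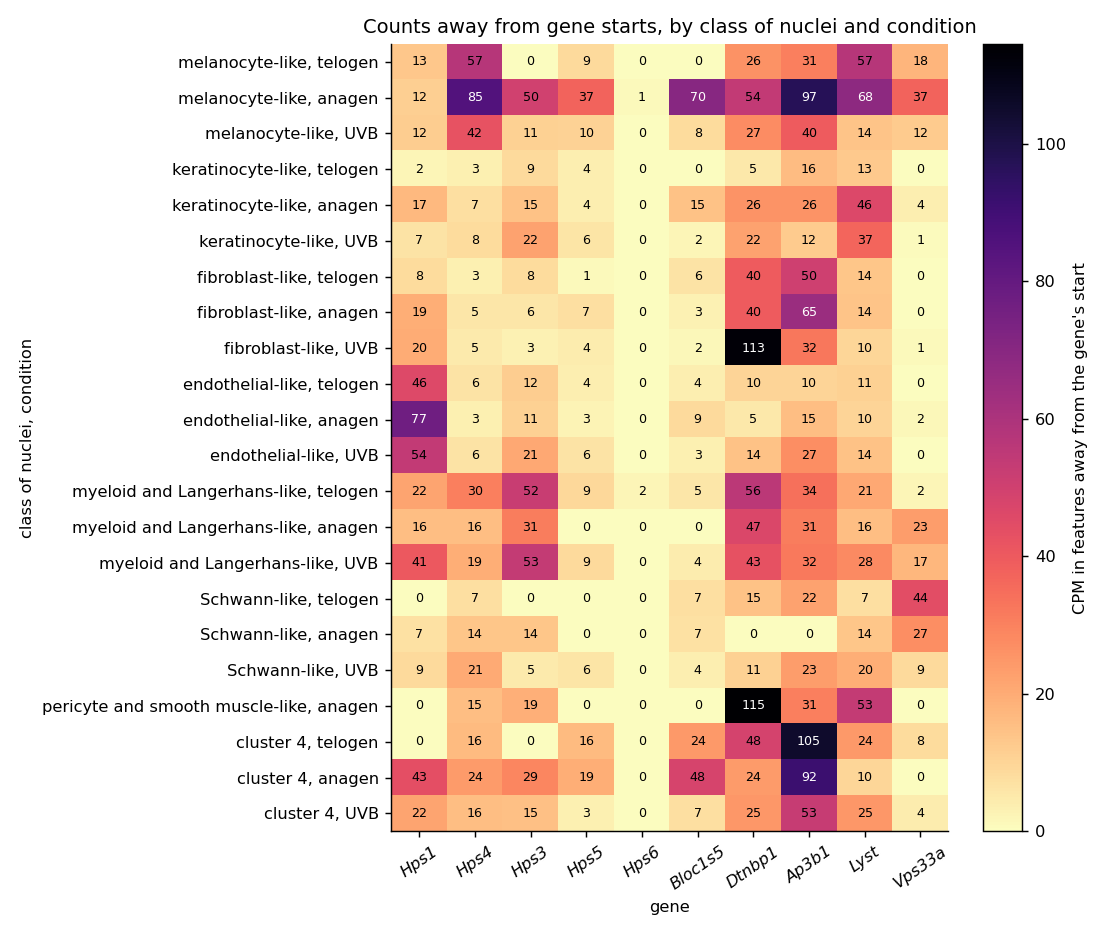
CPM of each gene in features away from its start, for each class of nuclei and condition with at least 100000 counts; the colour scale starts at 0 and the rounded value is printed in each cell. The anagen melanocyte-like row is the highest of that class for all genes but Hps1; Hps1 is darkest in endothelial-like nuclei and Dtnbp1 in pericyte-like nuclei of anagen and fibroblast-like nuclei of UVB.

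Within melanocyte-like nuclei, 6 of 10 genes were at least 1.5-fold higher in anagen than in telogen (26.9% of all genes): Hps1, Hps3, Hps5, Bloc1s5, Dtnbp1 and Ap3b1. Hps6 was lower (23.6%). Away from the start it was 6 of 9 genes, beside 45.5% of all genes. Intervals were wide. Over the whole window telogen gave between 0 and 39 counts per gene, and most genes reached the minimum of 30 counts through anagen. Of the 6 genes higher there, 2 had intervals that included a ratio of 1. These were Hps1 (0.799 to 11.7, from 3 telogen counts) and Dtnbp1 (0.954 to 3.12). Away from the start telogen gave between 0 and 13 counts, and all 9 genes reached that minimum through anagen. In UVB over anagen 6 were lower (22.1% of all genes) and none higher (16.5%), with a median log2 ratio of -0.70, and away from the start 8 of 9 were lower (51% of all genes), with a median of -1.63. Lyst had the lowest of these ratios after Bloc1s5, at 0.207 (0.155 to 0.274) away from the start, while its start was 1.53-fold (1.33 to 1.76) higher in UVB, as 23.1% of all starts were by 1.5-fold or more. The start was no longer past 1.5-fold with open features counted once per nucleus (log2 ratio 0.57), with housekeeping gene ends as the scale (0.18) or without cluster 7 (0.34). UVB over telogen gave 1 gene higher (20.5% of all genes), Hps1, from 3 telogen counts, and 2 lower (15.4%), Hps6 and Vps33a.

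The class was not the same set of clusters in each condition. Cluster 7 held 82.2% of the anagen melanocyte-like nuclei, 2.38% (3 nuclei) of those of telogen and 2.42% (39 nuclei) of those of UVB, and cluster 2 held the rest. Anagen nuclei of cluster 7 had a median of 3334 counts, those of cluster 2 1651. Inside anagen, 8 of 9 genes were at least 1.5-fold higher away from the start in cluster 7 than in cluster 2 (46.6% of all genes), with a median log2 ratio of 1.56 against 0.49. Inside UVB it was 6 of 9 (38.7%). In anagen, cluster 2 gave between 1 and 21 counts per gene away from the start. All 9 genes therefore reached the minimum count there through cluster 7, the cluster in which 8 of them were higher. Among those 8, the interval of Hps1 alone, 0.588 to 18.9, included a ratio of 1. Bloc1s5 had 75.0 CPM in cluster 7 and 13.6 in cluster 2 in anagen, and 50.8 and 6.12 CPM in UVB, from 11 and 25 counts. Hps5 away from the start had 40.2 and 2.72 CPM in anagen, and 78.4 and 6.86 in UVB, from 172, 1, 17 and 28 counts. Other genes did not differ in this way inside UVB: away from the start Hps3 had 9.23 CPM in cluster 7 and 11.3 in cluster 2, Ap3b1 41.5 and 39.7, and Dtnbp1 27.7 and 27.4, from 2, 9 and 6 counts in cluster 7. Nuclei were placed in these clusters by the same counts, with Bloc1s5 among the leading genes of cluster 7, so the levels describe the clusters. Without cluster 7, 2 of 10 genes rather than 6 were lower in UVB than in anagen, and away from the start 3 of 8 rather than 8 of 9. In anagen over telogen 2 of the 6 genes that could then be compared were higher, and away from the start no gene had enough counts to compare. No share over all genes stands beside these counts without cluster 7, so they do not tell whether these genes differ from others.

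The nuclei carry numbers in their names that the labels do not explain; they are not used as replicates, but show how evenly a value is spread. Among numbers with at least 100000 counts, Bloc1s5 ranged from 20.3 to 59.3 CPM over 7 numbers in anagen, from 0 to 12.0 over 10 in telogen and from 0 to 19.5 over 14 in UVB, so anagen did not overlap the others. Hps4 away from the start ranged from 26.6 to 68.6 CPM in anagen and from 0 to 24.0 in telogen, without overlap, and from 7.46 to 46.6 in UVB, with overlap. Hps5 did not overlap between anagen (11.1 to 34.8) and telogen (0 to 9.69), but UVB (0 to 15.6) overlapped anagen. Hps1, Hps3, Dtnbp1, Ap3b1, Lyst and Vps33a overlapped between anagen and telogen. No count over all genes stands beside these ranges, so they do not tell whether a lack of overlap is unusual. The melanocyte-like share of nuclei varied from 11.5% to 61.1% over these anagen numbers and from 0% to 15.2% over those of telogen.

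**Figure D5:**
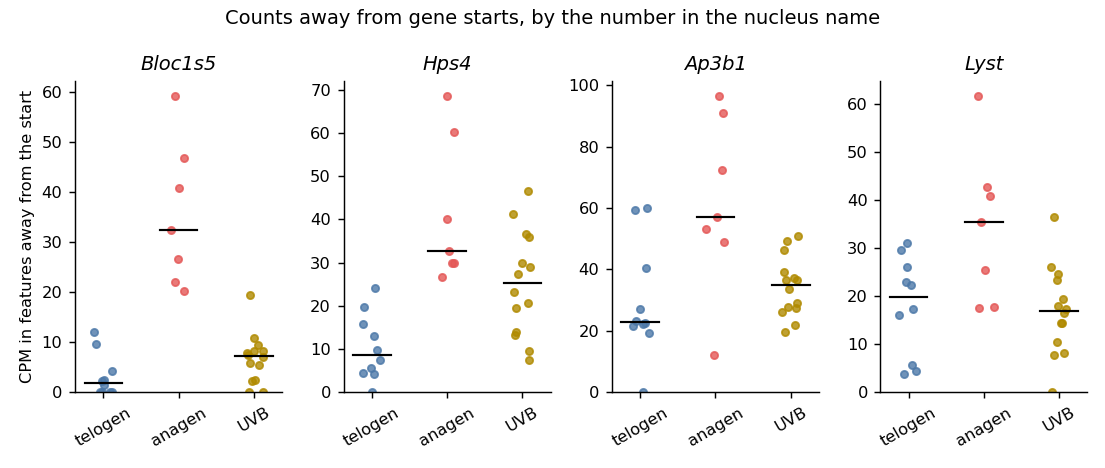
CPM in features away from the start for Bloc1s5, Hps4, Ap3b1 and Lyst, with 1 point for each number in the nucleus names that has at least 100000 counts, and a line at the median; the horizontal position within a condition is random. All 7 anagen points of Bloc1s5 lie above those of telogen and UVB, and the points of Ap3b1 and Lyst overlap between conditions.

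Of 34 other genes of the same machinery, 32 had a feature and 31 were compared. In anagen over telogen 3 were higher and 3 lower by 1.5-fold, beside 12.9% and 16.3% of all genes, with a median log2 ratio of 0.09. Rab38, the melanosomal GTPase that BLOC-3 activates, went from 52.8 CPM in telogen to 161 in anagen and 156 in UVB, ratios of 3.06 (2.69 to 3.48) and 2.95 (2.61 to 3.35) over telogen. Its UVB level was close to that of anagen. In UVB over anagen 29 of these 31 genes and 5 of the 10 lay between the 1.5-fold lines. The other 5 of the 10, Bloc1s5, Hps4, Vps33a, Ap3b1 and Hps3, were lower in UVB than in anagen. Ap3s2, the small subunit of AP-3, was 1.86-fold (1.57 to 2.20) higher in anagen. Lowest in anagen over telogen were Vps39, a HOPS subunit, at 0.434 (0.352 to 0.533) and Bloc1s4 at 0.530 (0.395 to 0.711). In UVB over telogen 2 were higher, Rab38 and Rab32 (1.51, 1.31 to 1.74), and 6 lower, of which Bloc1s4 (0.406) and Vps39 (0.408) were lowest; of all genes 9.07% were higher and 16% lower. In UVB over anagen none was higher (10.2% of all genes) and 2 were lower (13%), Stx12 (0.526) and Vps16 (0.540), and the highest were Rab9 and Rabggta, both at 1.302.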

How the data were processed

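Per the file headers and values, the authors deposited whole-number counts for every nucleus and feature of 1 telogen, 1 anagen and 1 UVB pool. The submitters' processing notes name Bowtie2, SAMtools and MACS2 with mm10 (GRCm38); settings are not stated there, and the counts show no normalization. Each barcode after the # was counted once per condition, keeping the deepest column, which left out 543 telogen, 1721 anagen and 62 UVB columns; 506 barcodes occur in more than 1 condition, and no doublet caller was run. Counts were summed over the features of each gene window (gene body and 2 kb on each side, RefSeq GRCm38.p6) and divided by all counts in features, as counts per 1000000. Genes or features with under 30 counts in the 2 groups together were not compared, a value of 0 was set to 3 counts, and a bound on the wrong side of 1 was left out. Ratios past 1.5-fold are counted; start features lie within 1 kb of a RefSeq start. Nuclei were clustered (TF-IDF, 30 singular vectors less the 1 that followed depth, 15 neighbours, Leiden at resolution 0.6, seed 1; scipy 1.17.1, scikit-learn 1.9.0, leidenalg 0.10.2). A cluster could take only the name of the list with the highest median fold. It was named where 3 or more markers and at least 50% of that list were 2-fold up. No other list could have more genes among the cluster's 10 top genes. The comparison was run on simulated counts, drawn independently from Poisson distributions. Real counts mostly come in pairs, so that run does not test the width of the intervals on them. With 1 sample per condition, no p-value was computed; precision is limited by the total counts per condition of 5225945 to 16182770. Alternatives were repeats counted, open features counted once, gene ends, features of 1 gene, housekeeping gene ends as the scale, no minimum count, subsets of numbers in nucleus names, seed 3 and clusters left out; adding cluster 4 and the split by distance from the start were chosen after seeing the data. The genes, the lists and these tests were chosen with earlier results of these data known. Features were named from those with, per gene, most counts, most counts away from gene ends and the largest fold between conditions (most at a start are given only within the start's level), and for the other machinery genes the 2 highest and 2 lowest of each comparison.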

Additional observations from a re-analysis of the deposited data

How the results depend on the processing

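No paired analysis was possible because the telogen and anagen nuclei came from 1 pooled library and the UVB technical replicates share 1 matrix; for the same reason no replicate could be left out. Of the median log2 ratios recomputed, 124 stayed within the counting interval of the main value and 10 did not. With gene ends only, the medians became 0.030 (anagen over telogen), -0.23 (UVB over telogen) and -0.11 (UVB over anagen) over all nuclei, and -0.014 and -0.15 (anagen over telogen, UVB over anagen) in melanocyte-like nuclei. Gene ends also turned the sign of Ap3b1 (-0.18 and 0.089 over all nuclei, -0.47 and 0.11 in melanocyte-like nuclei) and Hps4 (-0.36 and 0.030 over all nuclei), each in anagen over telogen and then UVB over anagen; by construction this setting leaves out the features inside the genes. Counts of genes past 1.5-fold became 1 (from 4) and 2 (from 6) higher in anagen than in telogen and 1 (from 5) and 1 (from 6) lower in UVB than in anagen (all nuclei, then melanocyte-like nuclei). Open features counted once per nucleus gave 3 rather than 5 lower in UVB than in anagen over all nuclei. Features of 1 gene gave 2 rather than 0 higher in UVB than in telogen over all nuclei, and counted repeats 3 rather than 1 in melanocyte-like nuclei. Of the counts recomputed, 216 stayed within 1.5 times and 52 did not. No shares over all genes stand beside the counts of these alternative settings, so they are not set against a background. Scaling by housekeeping gene ends moved the log2 ratios over telogen by 0.15 (anagen) and 0.13 (UVB) over all nuclei and by 0.62 and 0.18 in melanocyte-like nuclei, and those of UVB over anagen in melanocyte-like nuclei by -0.44, to a median of -1.13. Without cluster 7 the melanocyte-like UVB over anagen medians were -0.28 and, away from the start, -0.13, and the sign turned for Vps33a (0.78, and 0.051 away from the start), Hps3 (0.47) and Hps4 (0.15) away from the start; this setting leaves anagen with 171 nuclei of the class, and the anagen over telogen median away from the start could not be computed. With cluster 4 added, Ap3b1 in melanocyte-like nuclei went to -0.065 in anagen over telogen. Telogen numbers 8 to 10 gave a median of 1.80 away from the start, and without UVB number 19 Dtnbp1 away from the start was at -0.17 in UVB over telogen. The cause of the last 3 shifts was not tested. Depth limits the telogen melanocyte-like values most, where a count of 0 was set to 3 counts, or 13.2 CPM.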
